A study of Mus musculus with 78 samples.

Results

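Bilateral carotid artery stenosis (BCAS) was compared with a sham operation in the cerebral arteries of mice that had fasted intermittently (IF), 14 and 21 days after surgery. The libraries were chosen by their treatment labels, and 16 of the 78 libraries of the series belonged: 4 each of BCAS14IF, BCAS21IF, SHAM14IF and SHAM21IF. All came from male C57Bl6 mice labelled WT that had fasted for 3 months before the operation, so the sham animals carried the same diet and differed from the stenosis animals in the surgery. Neither the age of the mice nor the fasting schedule is given in the sources used here. The effect was taken as the mean of the 2 within-day differences, because a single day offered only 4 against 4 libraries. Nothing but the titles tells the libraries of a group apart, and whether each was a separate animal is not stated. P-values therefore measure the spread between libraries of a group, taken over all 78 libraries of the series, and that spread may be technical.

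Carotid stenosis narrows both common carotid arteries and leaves the brain chronically short of blood. The arteries downstream of the narrowing then work at lower pressure and flow. Their wall holds a lining of endothelial cells, layers of contractile smooth muscle and an outer coat of fibroblasts and matrix. Such arteries are known to answer lasting changes in flow by altering their tone, their matrix and their lumen. Hypoxia, inflammation and new vessel growth are the processes most often followed in this model, and the gene lists described here cover them.

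The 16 libraries held 15906716 to 23928338 fragments each. The tissue label fitted its markers: 12 smooth muscle markers summed to 8131 to 11721 FPKM in sham and 8701 to 11870 FPKM after stenosis (FPKM, fragments per kilobase of gene, scaled to depth), and all 15 endothelial markers were measured. A few libraries stood apart in markers of other cells. BCAS21IF replicate 4 had a mean red blood cell marker level of 7.57 on the log2(FPKM + 1) scale against 2.90 to 3.38 in its group, and 4.62% of its fragments were mitochondrial against 6.45% to 6.60%. SHAM14IF replicate 1 was high in oligodendrocyte markers, at 4.45 against 2.38 to 2.63. The pituitary hormone list, on the same scale, ranged from 0.68 to 7.70 over the 16 libraries with overlap between all groups. For Crispld2 and for the lists of endothelial, oligodendrocyte and red blood cell markers, values without the library that stood apart are also given.

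**Figure D1:**
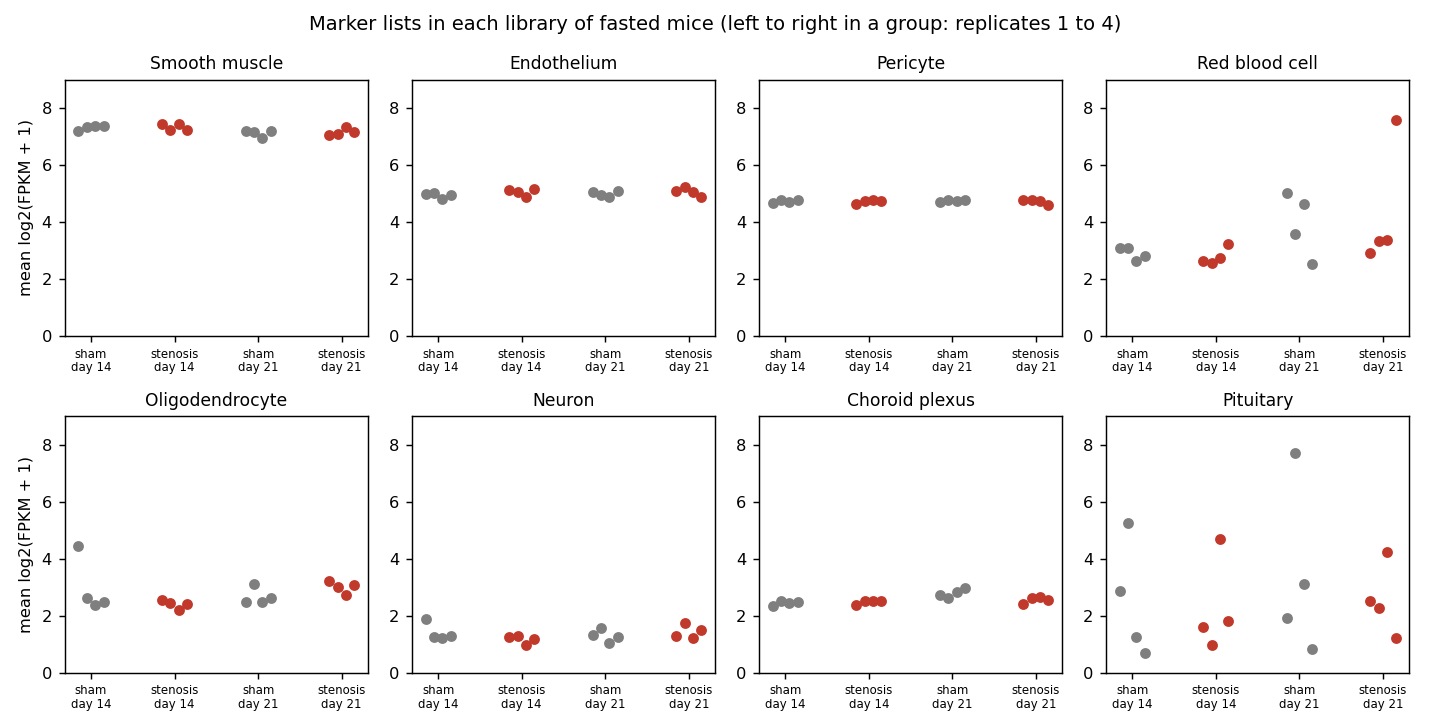
Mean level of 8 marker lists, as log2(FPKM + 1), in each of the 16 libraries of fasted mice, grouped by surgery and day (grey dots, sham; red dots, stenosis). Smooth muscle and endothelial lists lie close together in all libraries, and BCAS21IF replicate 4 stands at 7.57 in the red blood cell list.

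Of 15707 genes tested, 1 passed the threshold in fasted mice (0.00637%; limma, Benjamini-Hochberg adjusted p under 0.05). That gene was Crispld2, which encodes a secreted protein with a CAP domain and LCCL domains, and it was higher after stenosis. No gene was lower at this threshold. At an unadjusted p under 0.05 there were 723 genes (4.6%), of which 418 (2.66%) were higher and 305 (1.94%) lower. A second procedure, limma-voom on fragment counts recovered from the FPKM values, also called 1 gene, and it was Crispld2.

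Crispld2 (ENSMUSG00000031825) lies on the forward strand of chromosome 8 at 119992438 to 120052793 (GRCm38). It carries the only call of the comparison, so its promoter window, 250 bases before to 50 bases after its RefSeq start (GRCm38.p6, chr8:119992188-119992487, forward strand), is shown here. Capitals mark the letters CACGTG, the core of an E-box and the only match to that motif in the window.
Crispld2: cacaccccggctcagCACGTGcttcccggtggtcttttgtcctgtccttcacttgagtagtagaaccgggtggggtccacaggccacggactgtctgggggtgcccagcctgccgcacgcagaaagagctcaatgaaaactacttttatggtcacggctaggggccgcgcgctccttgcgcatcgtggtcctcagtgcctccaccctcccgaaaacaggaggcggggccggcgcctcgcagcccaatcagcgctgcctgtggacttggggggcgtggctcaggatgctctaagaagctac
The same 6 letters occur in 7.15% of the 32851 promoter windows of this length in the table. Because they read alike on both strands, they also hold a match on each strand to ACGTG, the core of hypoxia response elements, which 19.6% of the windows hold. No match to a GC box (GGGCGG, in 35.7% of windows), an AP-1 site (TGANTCA, in 7.81%) or a TEAD site (GGAATG, in 14.7%) was found on either strand of this window.

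In sham arteries Crispld2 stood at 88.0, 93.5, 89.6 and 91.0 FPKM on day 14 and at 75.6, 79.3, 66.3 and 76.4 FPKM on day 21. After stenosis it stood at 111, 115, 148 and 170 FPKM on day 14 and at 103, 114, 105 and 88.9 FPKM on day 21. On each day every stenosis library was above every sham library of that day, and the stenosis libraries of day 14 fell into a lower and a higher pair. Across days the groups touched, because the lowest stenosis library of day 21 lay under sham libraries of day 14. The mean rose from 82.5 ± 9.49 FPKM (SD, n = 8) to 119 ± 26.5 FPKM (n = 8). On the log2(FPKM + 1) scale Crispld2 rose by 0.51 ± 0.09 (SE), or 1.42-fold with a 95% interval of 1.26 to 1.60 (limma, adjusted p = 0.00218).

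The rise was 0.56 ± 0.12 on day 14 and 0.45 ± 0.12 on day 21, and the difference between the days was -0.11 ± 0.17 (adjusted p = 1.00, limma). Leaving out any of the 16 libraries in turn kept the call, with Crispld2 between 0.45 and 0.55. Without BCAS14IF replicate 4, the highest library, it was 0.45 with an adjusted p of 0.0306, and without BCAS21IF replicate 4 it was 0.54. With the red blood cell marker level as a covariate Crispld2 was 0.51, and with that of brain cells 0.50. The call did depend on the estimate of spread shared by all 78 libraries. In fits of only the 16 libraries the change was the same 0.51, but the adjusted p for Crispld2 was 0.0987 with day as a block and 0.183 with a mean per group, and no gene passed.

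**Figure D2:**
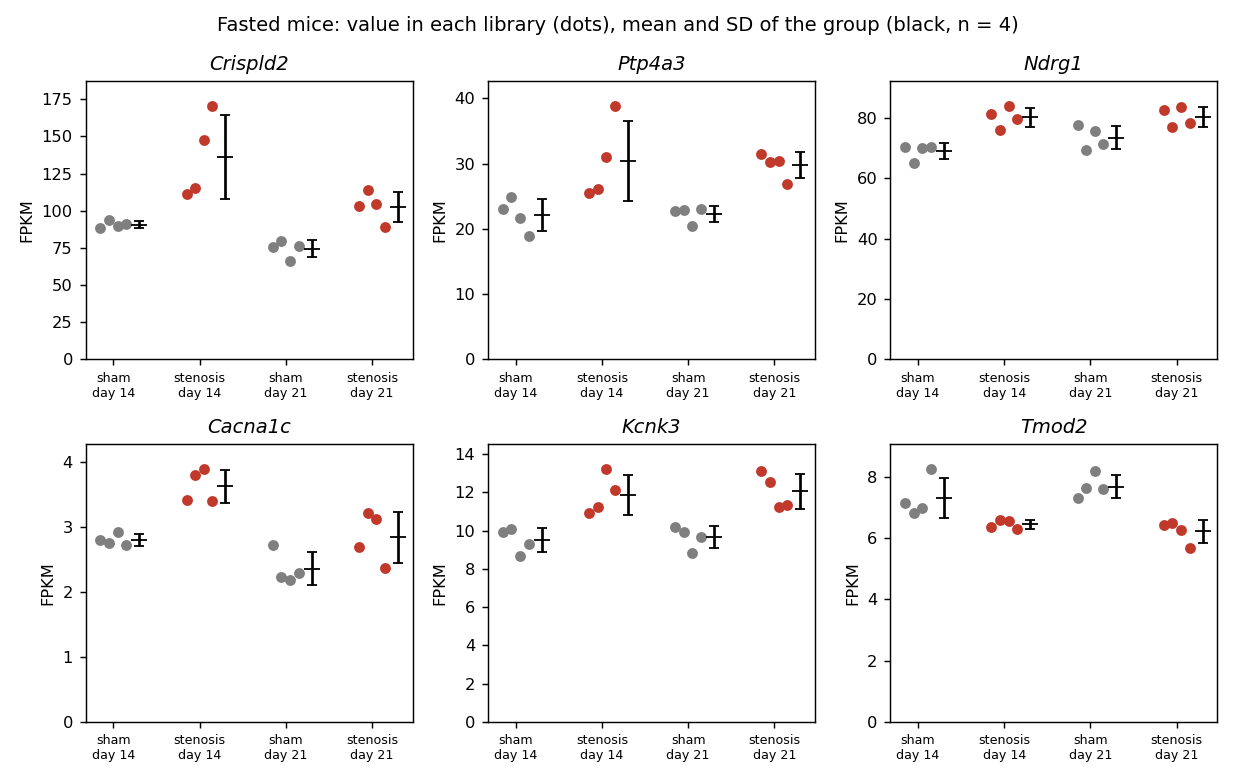
FPKM of 6 genes in each library of fasted mice (dots; grey, sham; red, stenosis), with the mean and SD of each group of 4 in black; each axis starts at 0. Crispld2 separates stenosis from sham within each day, and Ptp4a3, Kcnk3 and Tmod2 separate the 8 stenosis libraries from all 8 sham libraries.

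The rises next in order of p did not pass. Ptp4a3, which encodes a phosphatase of the PRL family found in endothelium, stood at 23.1, 24.8, 21.6 and 18.9 FPKM in sham on day 14 and at 22.7, 22.9, 20.4 and 23.1 FPKM in sham on day 21. After stenosis Ptp4a3 stood at 25.5, 26.2, 31.0 and 38.8 FPKM on day 14 and at 31.5, 30.2, 30.4 and 26.8 FPKM on day 21. All 8 stenosis libraries were above all 8 sham libraries. The log2 difference was 0.41 ± 0.10, or 1.33-fold (95% interval 1.17 to 1.52), and its adjusted p was 0.400 (limma). Over 30 alternative settings the difference of Ptp4a3 ran from 0.35 to 0.48 and passed in none.

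Non-overlap of this kind was met by 3 of the 15707 genes (0.0191%), Ptp4a3 and a pair named after their values were seen. Among so many genes a few can separate 8 against 8 libraries by chance, so it describes these genes and lends them no support. Kcnk3, which encodes the acid-sensitive potassium channel TASK-1, ranged from 8.69 to 10.2 FPKM in sham and from 10.9 to 13.2 FPKM after stenosis, a log2 difference of 0.29 ± 0.13. Tmod2, which encodes an actin-capping tropomodulin, ranged from 6.84 to 8.26 FPKM in sham and from 5.69 to 6.60 FPKM after stenosis, a difference of -0.21 ± 0.08. Neither passed (adjusted p = 1.00 for each, limma). Within single days 373 genes (2.37%) on day 14 and 675 genes (4.3%) on day 21 showed no overlap of 4 against 4 libraries. Chance alone also separates some genes at 4 against 4. Groups called apart on a single day are therefore described here and not tested.

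Ndrg1, a gene known for its induction by hypoxia, had narrow groups. Its values were 70.5, 65.0, 70.1 and 70.4 FPKM in sham on day 14, and 77.7, 69.3, 75.6 and 71.5 FPKM in sham on day 21. After stenosis Ndrg1 stood at 81.2, 76.1, 83.9 and 79.5 FPKM on day 14, and at 82.6, 76.9, 83.6 and 78.3 FPKM on day 21. The groups did not overlap on day 14, and on day 21 the highest sham library lay above the lowest stenosis library. The difference was 0.17 ± 0.04, or 1.13-fold, with an adjusted p of 0.400 (limma).

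Cacna1c encodes the pore of the L-type calcium channel that admits calcium into smooth muscle. In sham it stood at 2.80, 2.75, 2.92 and 2.72 FPKM on day 14 and at 2.72, 2.22, 2.18 and 2.29 FPKM on day 21. After stenosis Cacna1c stood at 3.40, 3.79, 3.89 and 3.39 FPKM on day 14 and at 2.68, 3.21, 3.11 and 2.36 FPKM on day 21. The day 14 groups were apart and the day 21 groups overlapped. The pooled difference was 0.24 ± 0.06 (adjusted p = 0.400, limma).

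Others with an adjusted p of 0.400 were Parn, a ribonuclease that shortens poly(A) tails, Cers4, a ceramide synthase, and Slc35b3, a Golgi transporter of the sulfate donor PAPS. Parn went from 4.56 ± 0.725 FPKM (SD, n = 8) in sham to 5.45 ± 0.654 FPKM (n = 8), with no overlap within either day. Cers4 went from 4.497 to 5.31 FPKM and Slc35b3 from 3.49 to 4.21 FPKM, each without overlap on day 21 and with overlap on day 14. Smu1, a splicing factor gene, went from 16.9 to 19.0 FPKM. These 8 rises, Crispld2 included, lay between 0.17 and 0.51 on the log2 scale.

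Among lower values none passed, and the 8 smallest p-values belonged to genes of low or moderate level. Baiap2l2, a membrane-bending protein gene, went from 2.06 ± 0.608 FPKM in sham to 1.15 ± 0.458 FPKM after stenosis (SD, n = 8 each), a difference of -0.52 ± 0.14 (adjusted p = 0.827, limma). The libraries overlapped on day 14 and were apart on day 21. 2210407C18Rik had the widest difference of the 8, at -0.68 ± 0.20, and was at 0.52, 0.31, 0.92 and 0.88 FPKM in the stenosis libraries of day 21 against 1.32 to 2.73 FPKM in sham. On day 14 the groups of 2210407C18Rik overlapped, with stenosis libraries at 2.84, 1.41, 1.78 and 0.80 FPKM and sham at 1.93 to 3.40 FPKM. Pxdc1 went from 24.97 to 19.3 FPKM, Sh3gl3 (an endophilin) from 3.87 to 2.87 FPKM and Znrf2 (a ubiquitin ligase) from 5.12 to 4.48 FPKM. Col11a2, a chain of collagen XI, went from 1.91 to 1.41 FPKM and Mtrr, which keeps methionine synthase active, from 1.85 to 1.49 FPKM.

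Mafg, a small Maf protein that pairs with Nrf2 at antioxidant genes, passed on neither day. Its sham values were 9.64, 9.15, 10.1 and 11.6 FPKM on day 14 and 12.3, 11.7, 12.97 and 12.2 FPKM on day 21. After stenosis Mafg stood at 9.65, 9.69, 10.2 and 10.51 FPKM on day 14 and at 8.98, 10.2, 8.82 and 10.3 FPKM on day 21. The difference was -0.01 ± 0.07 on day 14 and -0.33 ± 0.07 on day 21, where its adjusted p of 0.206 was the smallest of that day (limma). The test of the difference between the days gave -0.32 ± 0.10 (adjusted p = 1.00, limma).

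**Figure D3:**
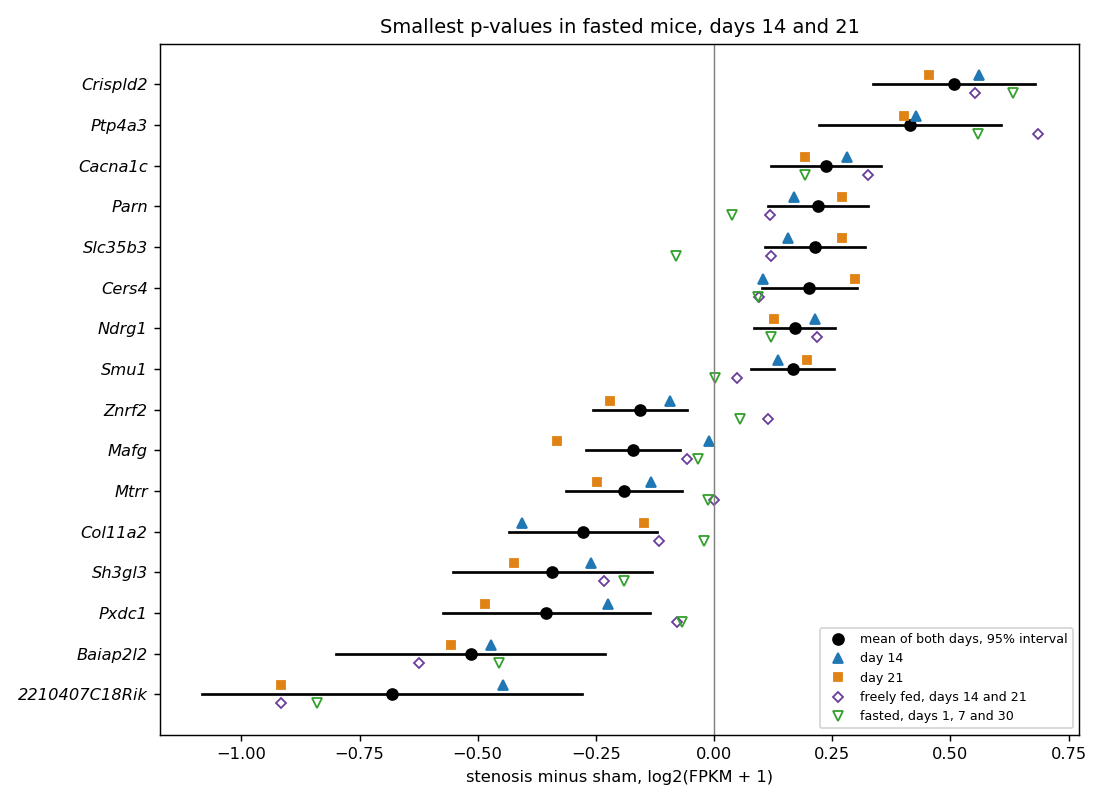
Stenosis minus sham on the log2(FPKM + 1) scale for the 8 rises and 8 falls with the smallest p-values. Black dots and bars are the mean of both days with its 95% interval; filled symbols are single days, and open symbols are freely fed mice and fasted mice on other days. Crispld2 lies furthest to the right at 0.51, and Slc35b3 and Znrf2 lie on the other side of zero in one or both other comparisons.

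On the scale tested, the data bounded most effects closely. For 14460 of the 15707 genes (92.1%), the 95% interval of the pooled difference lay within 1.5-fold of FPKM + 1 in either direction. For genes of low level this scale understates the fold change of FPKM, so the bound does not hold for FPKM there. Among the 7212 genes at 5 FPKM or more in either arm it did so for 7045 (97.7%). The median width on either side of the estimate was 0.16 on the log2 scale. Point estimates past 1.5-fold on the same scale were found for 67 genes, 16 of them at 5 FPKM or more. In simulated data of this design, 42% of genes changed by 0.25, 90% of those changed by 0.5 and 100% of those changed by 1 on the log2 scale were recovered. There 100 genes of each size were changed together, all with a mean above 1 on the log2(FPKM + 1) scale. The adjusted threshold is easier to pass when many genes change, so these shares do not carry over to a comparison with 1 call.

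Genes usually followed in hypoperfusion lay inside such bounds. Acta2, the actin of smooth muscle, stood at 5008 ± 537 FPKM in sham and 4813 ± 654 FPKM after stenosis (SD, n = 8 each), a difference of -0.06 with an interval of -0.33 to 0.21, and its sign changed to positive under quantile normalization. Hif1a, the oxygen-regulated subunit of the hypoxia factor, stood at 17.3 and 17.4 FPKM, a difference of 0.01 with an interval of -0.12 to 0.14. Vegfa differed by -0.08 (-0.25 to 0.09) over both days. On day 14 it was at 4.80 to 5.27 FPKM in sham and 3.94 to 4.57 FPKM after stenosis, without overlap. On day 21 Vegfa was at 4.91 to 5.41 FPKM in sham and 5.02 to 5.57 FPKM after stenosis, with overlap. The endothelial nitric oxide synthase gene Nos3 differed by 0.01 (-0.19 to 0.21). The sign for Hif1a and Nos3 changed when single libraries were left out.

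Inflammatory genes showed no passing difference either. The adhesion molecule gene Icam1 differed by -0.19 (-0.52 to 0.14) and Vcam1 by -0.08 (-0.23 to 0.08). Vcam1 was at 27.2 to 28.2 FPKM in sham and 28.0 to 30.9 FPKM after stenosis on day 14, with overlap. On day 21 Vcam1 was at 31.3 to 33.8 FPKM in sham and 25.7 to 29.2 FPKM after stenosis, without overlap. Il1b was at or under 0.68 FPKM in every library. Edn1, which encodes the constrictor endothelin, differed by 0.07 (-0.19 to 0.34), and the gelatinase genes Mmp2 and Mmp9 by 0.17 (0.02 to 0.31) and -0.03 (-0.30 to 0.24). Mmp9 was low, at 0.47 to 1.41 FPKM in sham and 0.32 to 1.19 FPKM after stenosis. Its interval therefore does not bound the fold change of FPKM. The signs of Edn1 and Mmp9 also changed when single libraries were left out. Klf2, a flow-induced endothelial factor, stood at 169, 119, 193 and 128 FPKM in sham and at 111, 184, 162 and 220 FPKM after stenosis on day 14. On day 21 Klf2 stood at 178, 186, 178 and 204 FPKM in sham and at 111, 119, 147 and 146 FPKM after stenosis. The groups overlapped on day 14 and were apart on day 21, where stenosis was lower. The difference was 0.14 ± 0.22 on day 14 and -0.52 ± 0.22 on day 21 (adjusted p = 0.860, limma).

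Gene lists gave the same picture, and each count of calls here stands against 0.00637% of all genes called. Counts above zero stand against 49.2% of all genes, and medians against -0.000572 on the log2 scale over all genes. Only the list of matrix proteoglycans and secreted CAP proteins had a called member, 1 of its 12 measured. Besides Crispld2 it holds Pi15, another CAP protein gene, which stood at 5.80 to 10.2 FPKM in sham and 7.22 to 12.8 FPKM after stenosis, a difference of 0.36 ± 0.15 (adjusted p = 1.00, limma). The close paralog Crispld1 differed by 0.01, from 3.35 to 3.37 FPKM, and the other 9 members, proteoglycans such as Bgn, Dcn, Ogn and Lum, lay between -0.05 and 0.12. Crispld2 and Pi15 had the largest differences of the list. None of the remaining 51 lists had a called member.

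Endothelial markers leaned to higher values without a call. Of 15 measured, 11 were above zero, with a median of 0.12, and 2 were higher at an unadjusted p under 0.05 against 2.66% of all genes. Tie1, a receptor of the angiopoietin system, differed by 0.22 ± 0.09 (24.9 to 29.2 FPKM) and the junction gene Esam by 0.15 ± 0.07 (45.6 to 51.0 FPKM). Kdr, Emcn, Cdh5 and Eng were at or under zero, between -0.12 and -0.01. The summed level of the list ran from 938 to 1208 FPKM in sham and from 946 to 1332 FPKM after stenosis. Without SHAM14IF replicate 1 the median was 0.13, and without BCAS21IF replicate 4 it was 0.15. Point estimates for markers of some other cells lay mostly below zero: 1 of 9 astrocyte genes was above zero with a median of -0.14, 0 of 5 choroid plexus genes with a median of -0.09 and 0 of 5 pituitary genes with a median of -0.50. The pituitary sums varied widely, from 4.18 to 5677 FPKM in sham and from 9.60 to 702 FPKM after stenosis. In SHAM21IF replicate 2 the pituitary genes Cga and Lhb stood at 34.2 and 26.8 FPKM. They were at most 3.95 and 3.41 FPKM in any other library. The pituitary median without that library was not determined. The part of these other cells in the endothelial values was not tested. In bulk RNA, more cells of a type and more RNA per cell cannot be told apart.

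Arterial endothelium had 8 of 12 members above zero with a median of 0.12. Nrp1, a semaphorin and VEGF co-receptor gene, was at 3.34 to 4.53 FPKM in sham and 3.65 to 5.14 FPKM after stenosis on day 14, and at 3.64 to 4.96 FPKM and 5.31 to 8.01 FPKM on day 21. It overlapped on day 14 and not on day 21, for a pooled difference of 0.35 ± 0.13. Bmx, a kinase of arterial endothelium, differed by 0.26 ± 0.10. Of 17 angiogenesis genes, 9 were above zero with a median of 0.08. Pgf, placental growth factor, differed by 0.25 ± 0.08 from 14.5 to 17.4 FPKM. All had an adjusted p of 1.00 (limma).

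Endothelial barrier and transport genes split, 11 of 18 above zero with a median of 0.04. Cav1, which forms caveolae, differed by 0.13 ± 0.05 from 83.0 to 91.4 FPKM. Mfsd2a, the lipid transporter that holds down vesicle traffic at the blood-brain barrier, was low throughout, at 0.35 to 1.03 FPKM in sham and 0.15 to 0.49 FPKM after stenosis. In 6 of 8 stenosis libraries it lay under every sham library, a difference of -0.34 ± 0.11. Flow-responsive endothelial genes had 4 of 16 above zero and a median of -0.06, with 0.03 on day 14 and -0.13 on day 21. On day 21 the mean level of that list was 3.98 to 4.13 in the sham libraries and 3.79 to 3.94 in the stenosis libraries (log2(FPKM + 1)), without overlap. Such separation was not particular to that list. On day 21 the glucocorticoid, complement and acute phase, fatty acid and detoxifying enzyme lists were also lower after stenosis without overlap. On day 14 the list of FoxO and insulin-responsive genes was higher after stenosis without overlap. These separations of lists were not tested. Among the flow-responsive genes Klf4 differed by -0.28 ± 0.12, with -0.02 on day 14 and -0.53 on day 21.

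Smooth muscle markers lay near zero, 9 of 12 above it with a median of 0.03 and a range of -0.06 to 0.10. Myh11, the smooth muscle myosin, stood at 437 ± 74.0 FPKM in sham and 463 ± 81.2 FPKM after stenosis (SD, n = 8 each). Of 14 calcium genes, 8 were above zero with a median of 0.04, and 3 were higher at an unadjusted p under 0.05. Besides Cacna1c these included Cacna1h, a T-type channel gene, at 0.23 ± 0.09. Potassium channels had 9 of 13 above zero and a median of 0.04, and the difference of Kcnk3 was the highest. Among 16 vasoactive receptors and enzymes, 12 were above zero, and the endothelin receptor gene Ednra and the endothelin-converting enzyme gene Ece1 each differed by 0.14.

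Matrix genes lay slightly above zero as lists. Of 15 collagens 13 were above zero with a median of 0.06, and of 14 basement membrane genes 12 were, with a median of 0.06. Col3a1 stood at 43.8, 45.3, 47.4 and 45.7 FPKM in sham and 45.8, 43.9, 45.7 and 63.4 FPKM after stenosis on day 14. On day 21 it stood at 43.9, 41.8, 40.7 and 44.3 FPKM in sham and 47.2, 57.4, 57.9 and 59.1 FPKM after stenosis. The day 21 groups were apart, while on day 14 a single stenosis library was high. Lama5 and Col4a1, of the basement membrane, differed by 0.18 ± 0.07 and 0.17 ± 0.07. Fbln2, Ltbp2 and the aggrecanase gene Adamts5 differed by 0.27 ± 0.10, 0.25 ± 0.09 and 0.27 ± 0.10, and each had an adjusted p of 1.00 (limma).

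Some lists leaned the other way. Of 18 heat shock chaperones 1 was above zero, with a median of -0.08. Hsph1 differed by -0.32 ± 0.13, from 19.9 ± 4.97 FPKM to 15.5 ± 2.32 FPKM (SD, n = 8 each), and its sham libraries varied from 14.9 to 28.1 FPKM. Of 22 TGF-beta and BMP genes 5 were above zero, with a median of -0.05. Skil, a repressor of that pathway, differed by -0.16 ± 0.06. Of 79 nuclear genes of oxidative phosphorylation 20 were above zero, with a median of -0.03.

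Most hypoxia and glycolysis genes lay on the other side of zero from Ndrg1. Of 16 measured, 5 were above zero with a median of -0.05, and the difference of Ndrg1 was the highest. Eno1, a glycolytic enzyme gene, differed by -0.11 ± 0.05, and Egln3, a prolyl hydroxylase gene of oxygen sensing, by -0.17 ± 0.08. Nrf2 antioxidant genes had 4 of 17 above zero and a median of -0.03, with Hmox1, heme oxygenase, at 5.82 to 10.2 FPKM in sham and 4.82 to 7.84 FPKM after stenosis.

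Among immune lists, macrophage and microglial markers had 8 of 15 above zero with a median of 0.00, and interferon response genes 13 of 18 with a median of 0.05. Adhesion molecules and chemokines had 4 of 14 above zero and a median of -0.09, with 0.02 on day 14 and -0.18 on day 21. The lowest of them was Ackr1, an atypical chemokine receptor gene, at -0.80 ± 0.53. The highest was the chemokine gene Ccl2, at 0.41, with 3.87 to 10.4 FPKM in sham and 7.50 to 12.3 FPKM after stenosis. Complement and acute phase genes had 7 of 12 above zero with a median of 0.02. The member with the lowest difference, Lcn2, the acute phase protein lipocalin 2, was named after its values were seen. It stood at 39.0, 32.9, 26.4 and 135 FPKM in sham and at 14.8, 6.44, 17.8 and 4.02 FPKM after stenosis on day 21, without overlap, and at 3.52 to 8.24 FPKM in all libraries of day 14. The sham libraries of day 21 were thus high against all others. The pooled difference of Lcn2 was -1.06 ± 0.69 (adjusted p = 1.00, limma).

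Immediate early genes had 11 of 24 above zero. Egr1 was at 8.22 to 17.5 FPKM in sham and 10.1 to 21.6 FPKM after stenosis, a difference of 0.36 ± 0.18, the highest of the list. Of 19 clock genes 5 were above zero, and Hlf, a clock-driven transcription factor, differed by -0.17 ± 0.08. No member of these lists passed.

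Lists of oligodendrocyte and red blood cell genes turned on single libraries. The oligodendrocyte list had a median difference of -0.59 on day 14 and 0.31 on day 21. Without SHAM14IF replicate 1 the day 14 median was -0.05, and the median over both days went from -0.06 to 0.09. Its summed level ran from 110 to 308 FPKM in sham and from 105 to 171 FPKM after stenosis. Red blood cell genes had a median of 0.14, with sums of 44.9 to 413 FPKM in sham and 46.8 to 3019 FPKM after stenosis. Without BCAS21IF replicate 4 the stenosis sums ended at 132 FPKM, and the median turned to -0.51, with 0 of 5 genes above zero. Their part in the results was not tested beyond the covariate fits, under which Crispld2 remained the single call.

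**Figure D4:**
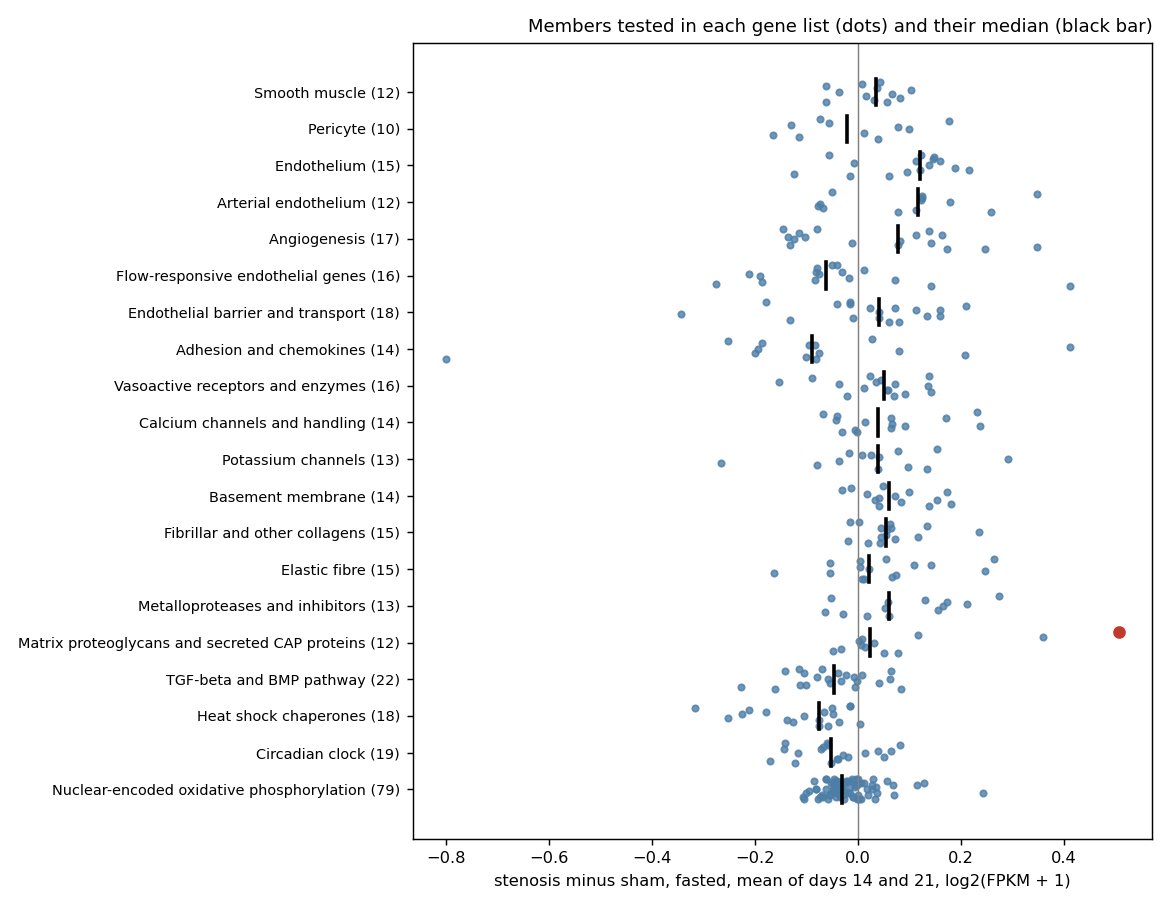
Stenosis minus sham on the log2(FPKM + 1) scale, mean of both days, for the members of 20 gene lists (dots; measured members in parentheses; red, past the threshold) and each list's median (black bar). Crispld2, at 0.51, is the single red dot, and the endothelium, arterial endothelium, collagen and basement membrane lists have medians between 0.06 and 0.12.

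The days were next set beside each other, since pooling could hide opposite effects. No gene passed on day 14 (0%; 490 genes, 3.12%, at an unadjusted p under 0.05) and none on day 21 (0%; 899 genes, 5.72%). No gene passed the test of the difference between the days either (0%; 595 genes, 3.79%, limma). Across the 15707 genes, the changes of day 14 and day 21, which share no library, had a Pearson r of -0.01 and a Spearman rho of 0.02, and 50.8% of genes had the same sign. These are correlations across genes, which are not independent replicates.

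The smallest p of the day difference belonged to Cnih4, a gene of cargo export from the endoplasmic reticulum. It stood at 13.6 to 15.1 FPKM in sham and 15.9 to 17.96 FPKM after stenosis on day 14. On day 21 Cnih4 stood at 16.8 to 19.7 FPKM in sham and 15.3 to 17.0 FPKM after stenosis. Its groups were apart on day 14, with stenosis above sham, and overlapped slightly on day 21, with stenosis lower. The difference was 0.21 ± 0.06 on day 14 and -0.16 ± 0.06 on day 21, and the change of the effect was -0.37 ± 0.08 (adjusted p = 0.232, limma). Cntfr, the receptor of ciliary neurotrophic factor, was at 32.7 to 38.2 FPKM in sham and 23.0 to 27.5 FPKM after stenosis on day 21, without overlap, and overlapped on day 14. Its difference was -0.45 ± 0.10 on day 21 and 0.12 ± 0.10 on day 14.

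The same contrast in freely fed (ad libitum) mice on days 14 and 21, measured in 16 other libraries, showed whether the fasted effect differed. No gene passed the test of the difference between the diets (0%; 715 genes, 4.55%, at an unadjusted p under 0.05; smallest adjusted p = 0.938, limma). In freely fed mice 59 genes passed (0.376%), 46 higher (0.293%) and 13 lower (0.0828%). For Crispld2 the freely fed change was 0.55 ± 0.09 beside 0.51 in fasted mice, and the difference of -0.04 had an interval of -0.29 to 0.20. For Ptp4a3 it was 0.68 ± 0.10 beside 0.41, a difference of -0.27 with an interval of -0.54 to 0.00. A count of 59 beside 1 therefore does not by itself show that the diets differ.

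Among the smallest p-values between diets, and among list members, were genes that leaned in opposite directions. Irf2bp2, a transcriptional corepressor gene, differed by -0.14 ± 0.05 in fasted and 0.13 ± 0.05 in freely fed mice, and the difference between the diets had an adjusted p of 0.938 (limma). Surf4, a cargo receptor of the endoplasmic reticulum, differed by 0.07 ± 0.05 in fasted mice and fell by 0.19 in freely fed mice, where it passed (adjusted p = 0.0407, limma). Klf4 differed by -0.28 in fasted and 0.27 ± 0.12 in freely fed mice, and Nrp1 by 0.35 and -0.22 ± 0.13. None of these 4 passed the test between diets.

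Fasted mice on days 1, 7 and 30 gave a further 23 libraries that the pooled comparison does not use. There 80 genes passed (0.509%), 53 higher (0.337%) and 27 lower (0.172%), and again no gene passed the test of a difference from days 14 and 21 (0%; 645 genes, 4.11%, at an unadjusted p under 0.05; smallest adjusted p = 0.364, limma). Crispld2 rose there by 0.63 ± 0.07 (adjusted p = 2.44e-08) and Ptp4a3 by 0.56 ± 0.08 (adjusted p = 2.76e-05, limma). The difference from days 14 and 21 was -0.12 for Crispld2 (-0.35 to 0.10) and -0.14 for Ptp4a3 (-0.40 to 0.11).

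Genes that passed in these other libraries were then read in the fasted mice of days 14 and 21. Of the 80 genes from fasted mice on other days, 74 (92.5%) had the same sign, 22 (27.5%) also had an unadjusted p under 0.05 in that direction and 0 had one in the opposite direction. Of the 59 genes from freely fed mice, 53 (89.8%) had the same sign, 25 (42.4%) an unadjusted p under 0.05 in that direction and 0 in the opposite. Over all genes 4.6% were under that p in either direction, 2.66% higher and 1.94% lower. The share of all genes with the same sign in these comparisons was not determined. The sizes were smaller: in the direction called, the median was 0.13 here against 0.31 on the other days, and 0.13 against 0.35 in freely fed mice. Genes chosen for passing tend to have enlarged values in the libraries that chose them, so those sizes are not like for like.

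In all, 13 genes passed in both of these other comparisons, and they were named after their values were seen. Besides Crispld2, Ptp4a3, Cacna1c, Pi15 and 2210407C18Rik they were Wisp2, Igfbp4, Fhl1, Angpt2, C1s1, Adamts1, Ctxn1 and Kcne4. Wisp2, a CCN family matricellular gene, was at 34.8, 35.8, 35.5 and 28.7 FPKM in sham and 26.6, 40.6, 39.9 and 63.1 FPKM after stenosis on day 14. On day 21 it was at 19.95, 22.2, 15.6 and 22.2 FPKM in sham and 22.6, 47.4, 34.5 and 31.2 FPKM after stenosis. The groups overlapped on day 14 and were apart on day 21, for a pooled difference of 0.49 ± 0.18 (adjusted p = 1.00, limma) beside 0.67 on the other fasted days and 0.76 in freely fed mice.

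The growth factor carrier gene Igfbp4 went from 189 ± 11.8 FPKM to 210 ± 9.98 FPKM (SD, n = 8 each), a difference of 0.15 beside 0.30 and 0.29 in those comparisons. Fhl1, a muscle LIM protein gene, differed by 0.17 beside 0.22 and 0.23. Angpt2, an antagonist of the Tie2 receptor, differed by 0.14 beside 0.22 and 0.26, and the complement protease gene C1s1 by 0.15 beside 0.24 and 0.31. Adamts1, Ctxn1 and Kcne4 differed by 0.17, 0.09 and 0.13 with intervals that include zero, beside 0.60, 0.46 and 0.45 on the other fasted days. All 13 had the same sign here as there.

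Exceptions to the shared sign were 6 of the 80 genes and 6 of the 59. Bbs9, a gene of the primary cilium, rose by 0.28 ± 0.06 on the other fasted days (adjusted p = 0.00499, limma) and differed by -0.10 ± 0.07 on days 14 and 21. The difference between these effects was -0.37 ± 0.09 (adjusted p = 0.364, limma). St3gal3, a sialyltransferase gene, and Slc35b3 had the same adjusted p in the other direction, differing by 0.33 ± 0.08 and 0.29 ± 0.07 between the sets of days. The processed pseudogene Gm15432, whose reads may belong to its parent gene, differed by -0.42 ± 0.22 beside 0.76 ± 0.18 on the other fasted days.

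**Figure D5:**
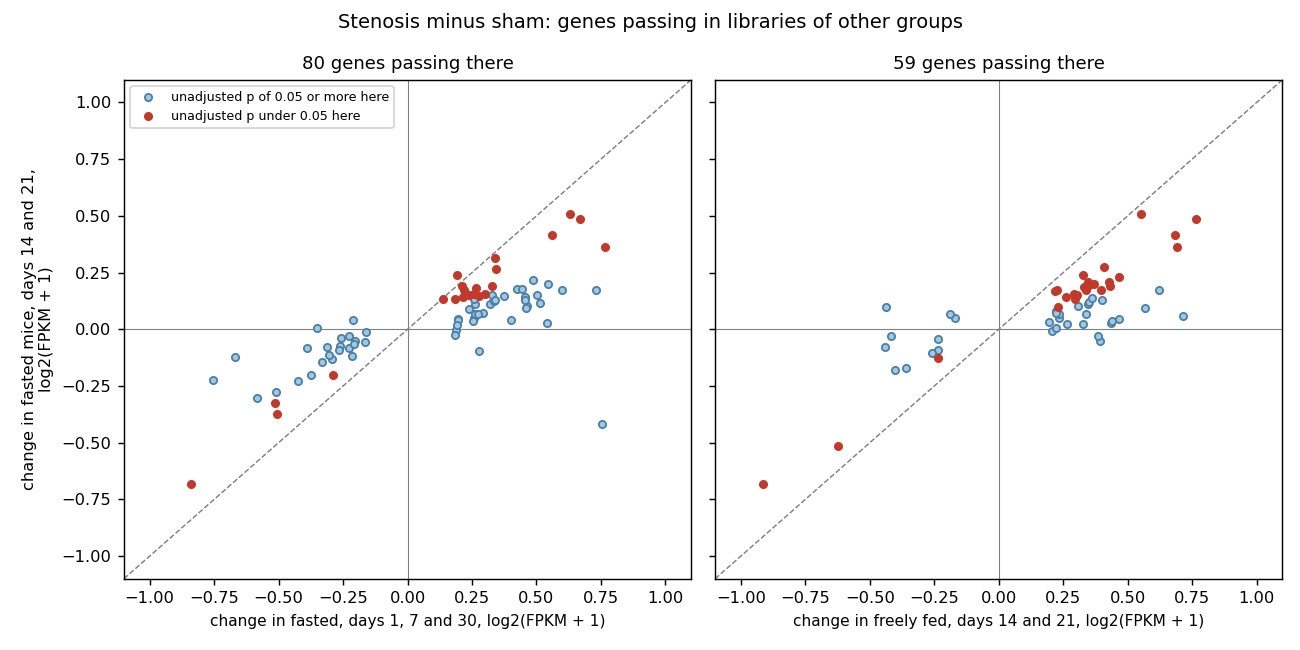
Change of each gene after stenosis in fasted mice on days 14 and 21 (vertical axis, log2(FPKM + 1)) against its change in the libraries where it passed (horizontal axis): 80 genes of fasted mice on days 1, 7 and 30 (left) and 59 of freely fed mice on days 14 and 21 (right). Red dots have an unadjusted p under 0.05 in the fasted mice, the dashed line marks equal change, and 74 of 80 and 53 of 59 genes share the sign.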

How the data were processed

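RNA from cerebral arteries was sequenced, and the authors deposited 1 table of FPKM values for 54532 genes and 78 libraries, per the file headers. The submitters' processing notes list DESeq 1.10.1 and give it no role; aligner and build are not given in the sources used here. GENCODE M21 holds 54495 of the gene identifiers, and 98.3% of genes match it in coordinates, hence GRCm38 positions. FPKM times gene length fell on whole multiples of 1 step in each library (tolerance 0.05) for 100% of values under 1000 fragments, which gave the depth.

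Tests were run on log2(FPKM + 1), computed from the deposited values, with limma 3.58.1 (trend and robust options; R 4.3.3, statmod 1.5.0), since FPKM values are not counts. This scale understates changes of low genes. Genes at 1 FPKM or more in at least 3 libraries were kept (15707). All 78 libraries shared 1 model with a mean for each of 20 groups. P-values were two-sided and adjusted by Benjamini-Hochberg over all genes, with a threshold of 0.05. Errors of log2 differences are standard errors. Counts "above zero" are of point estimates. The steps were tested on simulated data of 15707 genes, which gave 9 false calls.

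The comparison, the gene lists and the genes named were chosen with earlier results of these data known. Named were protein-coding genes past the threshold, filled up to 8 a direction by smallest p with the same sign on both days and at least 1 FPKM in either arm. A panel, the 3 smallest p of each day and difference in each direction, and up to 2 members of each list with the smallest p were added; other list members were picked as examples after their values were seen. Promoter sequences were taken from RefSeq (GRCm38.p6), where 5 of the 8 leading rises had an entry. Motifs were searched on both strands. Alternatives were other pseudocounts and filters, median and quantile scaling, limma-voom, array weights, fits of only 16 libraries, marker covariates and leaving out single libraries.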

Additional observations from a re-analysis of the deposited data

Results flagged for a closer look

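In a group of 4 libraries, a value was taken up here when its gap to the nearest other library was large against the range of the group (Dixon's test at the 95% level). Of 388 groups of 4 examined, 21 gave such a value, and chance alone gives about 1 in 20 groups.

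Among leading genes, Ptp4a3 was low in SHAM21IF replicate 3 at 20.36 FPKM, Ndrg1 low in SHAM14IF replicate 2 at 64.99 FPKM, and Pi15 high in SHAM21IF replicate 4 at 6.51 FPKM against 5.80 to 5.84 FPKM. Wisp2 was low in SHAM14IF replicate 4 at 28.65 FPKM and Kcne4 low in SHAM21IF replicate 3 at 10.09 FPKM. Col11a2 was high in BCAS14IF replicate 2 at 1.461 FPKM, and Znrf2 low in BCAS14IF replicate 4 at 4.041 FPKM. Cntfr was low in BCAS14IF replicate 1 at 24.98 FPKM against 35.1 to 36.7 FPKM, a level close to that of all 4 stenosis libraries of day 21.

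Of list members, Col3a1 was high in BCAS14IF replicate 4 at 63.36 FPKM and low in BCAS21IF replicate 1 at 47.24 FPKM. Hsph1 was high in SHAM14IF replicate 4 at 23.1 FPKM, Ece1 low in SHAM21IF replicate 3 at 22.81 FPKM, and Il1b high in SHAM21IF replicate 4 at 0.6759 FPKM.

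Of marker lists, on the log2(FPKM + 1) scale, SHAM14IF replicate 1 was high in neuron markers at 1.879 and in oligodendrocyte markers at 4.453. BCAS21IF replicate 4 was high in red blood cell markers at 7.571, low in pericyte markers at 4.599 and low in mitochondrial fragments at 4.622%. BCAS14IF replicate 1 was low in choroid plexus markers at 2.383. Depth was low in SHAM14IF replicate 4, at 15906716 fragments, and high in SHAM21IF replicate 2, at 23069267.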

How the results depend on the processing

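Fits of only the 16 libraries called 0 genes with day as a block and 0 with a mean per group, with 983 and 973 genes at an unadjusted p under 0.05, against 1 call in the fit of all libraries. The count stayed at 1 in the other alternatives tried, including each library left out, and Crispld2 was called in 28 of 30. Without a filter on low values, day 14 gave 10 calls and day 21 gave 10, of which Gm22728 on day 14 and Mafg on day 21 (adjusted p = 0.0465, limma) were also tested with the filter. Freely fed mice then gave 16 calls in place of 59, over more genes tested. Leaving out a library gave 0 to 1 calls on day 14, where the call, without BCAS14IF replicate 3, was the small RNA gene Gm22728, at a log2 change of 1.16 (0.87 with it). The other differences stayed at 0 calls.

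Of 92 results on single genes, those that changed sign lay near zero. Acta2 became 0.0042 under quantile normalization, and Nos3 became -0.0036 and Mmp9 0.036 under array weights. The cause of these changes was not tested. Ptgds became 0 under quantile normalization, which is not a change of sign. That scaling gives a gene with the same rank in every library the same value in each. With a library left out, Nos3 ran from -0.055 to 0.092, Hif1a from -0.026 to 0.035, Mmp9 from -0.077 to 0.045 and Edn1 from -0.021 to 0.154. Edn1 was -0.018 without both BCAS14IF replicate 1 and BCAS21IF replicate 4, an alternative chosen after seeing the data.

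No paired analysis was possible because the labels give no replicate numbers that are shared between groups. The recovery of changes by level of expression was not tested.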
